A study of Mus musculus with 6 samples.

Results

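The secreted phospholipase A2 family was followed in hair follicle stem cells of mice that carry one of its genes as a transgene. The family was taken as 10 named genes, and a gene was read from the array feature (1 set of probes summarised to 1 value) that the platform annotation assigns to its symbol alone. All 10 genes were found, each with 1 such feature, among 22180 genes measured. They are Pla2g2a, Pla2g2c, Pla2g2d, Pla2g2e, Pla2g2f, Pla2g5, Pla2g1b, Pla2g10, Pla2g3 and Pla2g12a. The 3 transgenic samples (TG) came from mice with the K14-sPLA2-IIA transgene and the 3 wild-type samples (WT) from mice without it. All mice were at postnatal day 49, and the cells were sorted from skin for the surface proteins CD34, a marker of the follicle bulge, and α6-integrin. Each sample was hybridised to 1 Affymetrix mouse gene array. The keratin 14 promoter named in the transgene is active in the basal layer of the epidermis and in the outer root sheath. Other sorted keratinocytes can therefore express the transgene too. The labels give neither the mouse strain nor the species of the transgene, and whether each sample came from a mouse of its own is not stated. The p-values therefore cover the spread between these samples alone, which may be technical.

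Secreted phospholipases A2 are small enzymes that need calcium and cut the middle ester bond of membrane phospholipids, which frees a fatty acid such as arachidonic acid and leaves a lysophospholipid. The fatty acid can feed the synthesis of prostaglandins and leukotrienes, and the lysophospholipid can act as a signal itself. Family members differ in the phospholipids they prefer and in where they are made. In mouse skin, group IIF enzyme is known from the suprabasal epidermis, and the group IIE and group X enzymes are known from hair follicles. The IIA enzyme is known for killing bacteria and for its rise in inflammation.

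In the RefSeq gene table of GRCm38.p6, Pla2g2a, Pla2g2c, Pla2g2d, Pla2g2e, Pla2g2f and Pla2g5 lie side by side on chromosome 4, and the span of Pla2g2a lies within that of Pla2g5. The other 4 members lie on chromosomes 3, 5, 11 and 16. The table, made from the C57BL/6J strain, lists Pla2g2a as a transcribed pseudogene and the other 9 members as protein-coding. A natural frameshift of Pla2g2a is known from that strain. The promoter table of the same RefSeq build held 9 promoters for 8 members. The 250 bases before the start are shown for Pla2g2f, which differed most between arrays of 1 genotype, and for Pla2g2e, which differed least. Capitals mark a match to the AP-1 motif TGANTCA.
Pla2g2f, chr4:138757599-138757848 (GRCm38.p6, minus strand): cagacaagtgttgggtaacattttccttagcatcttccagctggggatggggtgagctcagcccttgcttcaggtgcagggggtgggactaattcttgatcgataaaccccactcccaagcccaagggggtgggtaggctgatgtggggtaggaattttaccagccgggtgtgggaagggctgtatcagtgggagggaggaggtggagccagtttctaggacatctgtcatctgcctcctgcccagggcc
Pla2g2e, chr4:138877692-138877941 (GRCm38.p6, plus strand): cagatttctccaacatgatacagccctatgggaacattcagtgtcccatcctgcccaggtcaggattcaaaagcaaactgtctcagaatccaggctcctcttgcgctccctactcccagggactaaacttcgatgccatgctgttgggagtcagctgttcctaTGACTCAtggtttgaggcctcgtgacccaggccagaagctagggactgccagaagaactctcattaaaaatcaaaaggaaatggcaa
Motifs were searched on both strands as AP-1 (TGANTCA), the TATA box (TATAAA), grainyhead (AACCNGTT) and C/EBP (TTGCNNAA), and no matches overlapped. AP-1 letters stood 87 to 81 bases before the start of Pla2g2e, and 6.75% of 32851 promoters of that length hold them. C/EBP letters stood 131 to 124 bases before the start of Pla2g12a, and 9.56% of promoters hold them. The TATA box letters are in 12.4% of promoters and the grainyhead letters in 1.79%. The other 7 promoters of members, that of Pla2g2f among them, held none of these letters in this window.

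Of the genes for the sorted surface proteins, Itga6 varied little between arrays and Cd34 varied widely. Krt14, the keratin gene whose promoter names the transgene, had log2 values between 13.80 and 14.24 over all 6 arrays. Krt15, a bulge keratin gene, read between 13.21 and 13.50, and Itga6, which encodes α6-integrin, averaged 10.27 ± 0.25 in TG and 10.34 ± 0.18 in WT (SD, n = 3 each). Cd34 varied more, with 11.57, 9.65 and 12.42 on TG arrays 1 to 3 and 9.78, 9.89 and 13.07 on WT arrays 1 to 3. The arrays numbered 3 read highest for it, and TG array 1 came next. Of 12 suprabasal markers, which keratinocytes make after they leave the basal layer, 12 were lower by at least 0.5 on array 3 than the mean of the other arrays of the same genotype, in TG and in WT alike, and 9.15% of all genes did the same. The median of all features was between 5.90 and 5.96 on TG arrays and between 5.91 and 5.99 on WT arrays.

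Pla2g2a, which encodes the IIA enzyme, was the member that rose in TG cells. It read 12.61, 12.57 and 12.39 on TG arrays 1 to 3, against 6.77, 5.75 and 5.90 on WT arrays 1 to 3. The groups were far from overlapping, and WT array 1 was the highest of the WT arrays. The mean was 12.52 ± 0.12 in TG and 6.14 ± 0.55 in WT (SD, n = 3 each). The difference, TG minus WT, was 6.38 ± 0.27 (SE) on the log2 scale with a 95% interval of 5.73 to 7.04. If the log base is 2, that is 83.4-fold with an interval of 53.0 to 131. The adjusted p was 0.00255 in limma, and it was the only gene called higher among the 22180, or 0.00451%. Permuting the genotype labels exactly gave a two-sided p of 0.1 (exact permutation test), which 3 arrays against 3 cannot go below. Between arrays of the same number, Pla2g2a was higher in TG by 5.84, 6.82 and 6.48. The call was lost with no moderation of the variances (adjusted p = 0.292 in limma), without TG array 1, where the difference was 6.34 (adjusted p = 0.065 in limma), and without both arrays numbered 3, where it was 6.33 (adjusted p = 0.173 in limma). Which bases of the gene the probes cover was not examined, so signal from the transgene and from the mouse's own gene cannot be told apart.

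**Figure D1:**
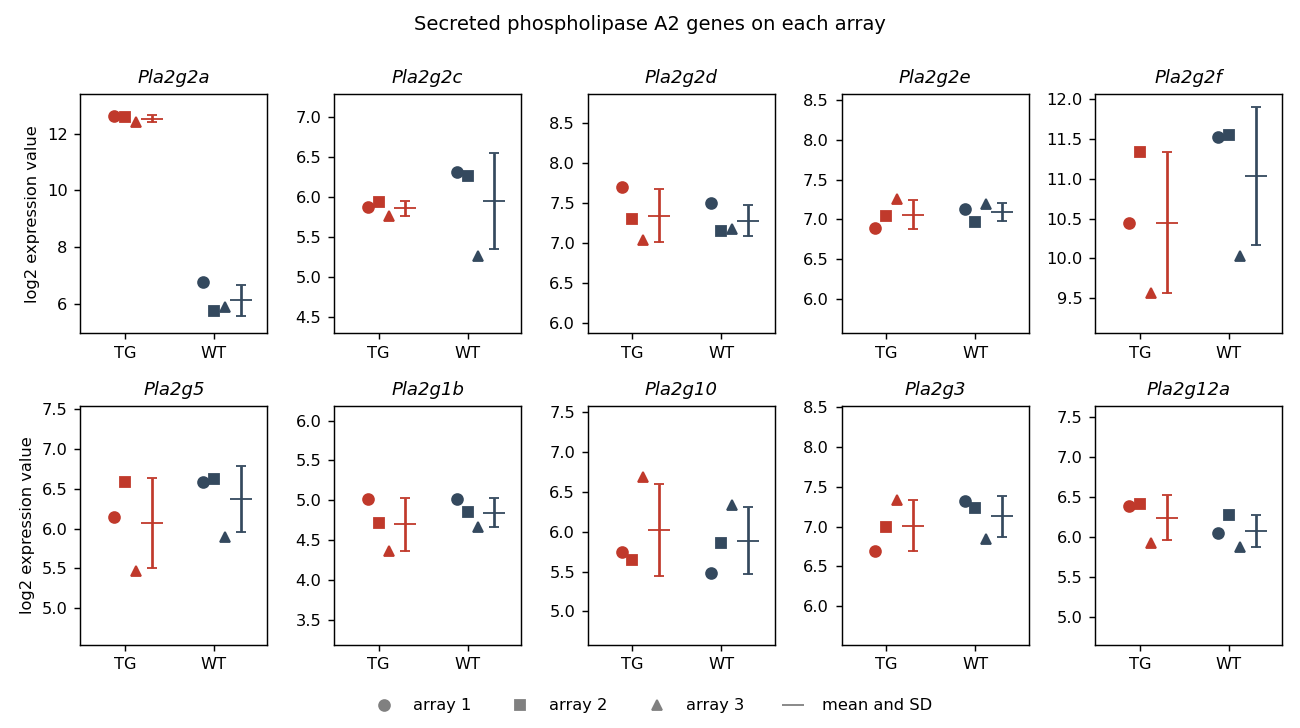
Log2 expression value (vertical axis) of the 10 secreted phospholipase A2 genes on each array, TG at the left and WT at the right of each panel, with a symbol for each array number and the mean and SD (n = 3) beside them. The 9 panels other than Pla2g2a share 1 axis length and that of Pla2g2a is longer. Pla2g2a lies between 12.39 and 12.61 in TG and between 5.75 and 6.77 in WT, and in the other 9 panels the genotypes overlap.

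None of the other 9 members passed the test in either direction (adjusted p = 0.99996 for each in limma), and at an unadjusted p under 0.05 there were 0 of them, against 1.93% of all genes higher and 0.843% lower. Their differences ran between -0.58 for Pla2g2f and 0.17 for Pla2g12a, with 3 above 0 and 6 below. The median over these 9 was -0.09, against -0.0075 over all genes. In each of the 9 the TG and WT arrays overlapped. All TG arrays lay above all WT arrays for 3.99% of genes and below them for 3.21%. The intervals bound what 3 arrays a genotype can exclude. The 95% intervals of the 9 reached no lower than -1.93 and no higher than 0.95, so a rise like that of Pla2g2a lay outside every one of them.

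**Figure D2:**
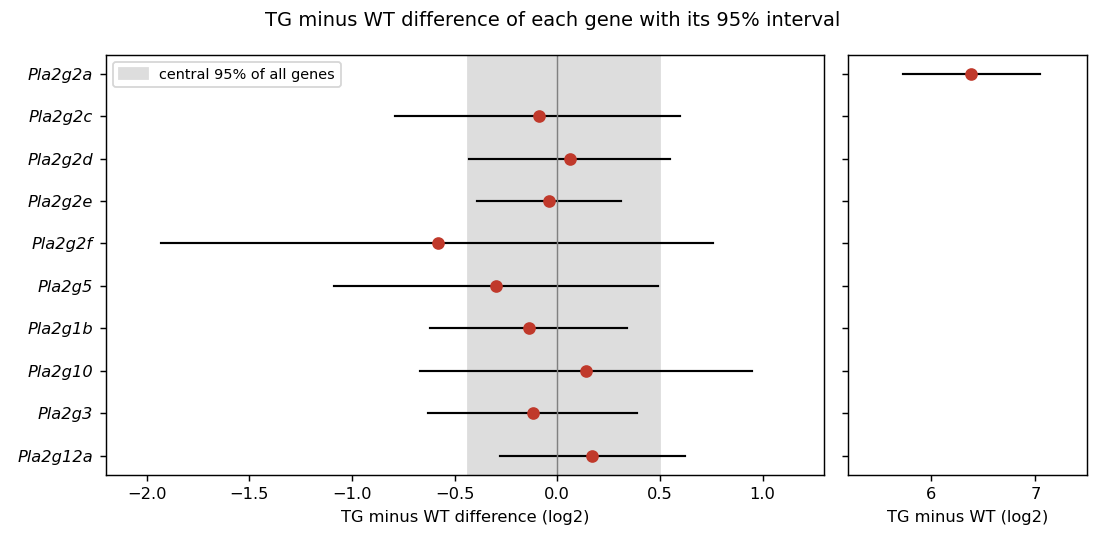
TG minus WT difference on the log2 scale (horizontal axis, in 2 parts) of each secreted phospholipase A2 gene with its 95% interval from limma. The grey band holds the central 95% of all genes, between -0.43 and 0.50. Pla2g2a stands at 6.38 and the other 9 intervals all include 0.

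None of the genes beside Pla2g2a on chromosome 4 was called, and all their intervals lay far below its rise. Pla2g5, whose span encloses that of Pla2g2a, encodes the group V enzyme, known from macrophages and fat tissue. It read 6.14, 6.59 and 5.47 on TG arrays 1 to 3, against 6.59, 6.62 and 5.89 on WT arrays 1 to 3. Its TG arrays were thus not above the WT arrays of the same number, and the difference was -0.30 ± 0.33 (SE) with a 95% interval of -1.09 to 0.49. Of the measured genes outside the family, the nearest on the side of Pla2g5 in gene order were Vwa5b1, Camk2n1 and Mul1, with differences of -0.15 ± 0.13, 0.06 ± 0.24 and -0.04 ± 0.17 (SE). The nearest on the side of Pla2g2e were Otud3, Rnf186 and Tmco4, with 0.08 ± 0.14, 0.12 ± 0.13 and -0.20 ± 0.14 (SE). None of these 6 genes passed the test (adjusted p = 0.99996 in limma), and their 95% intervals reached no higher than 0.63.

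**Figure D3:**
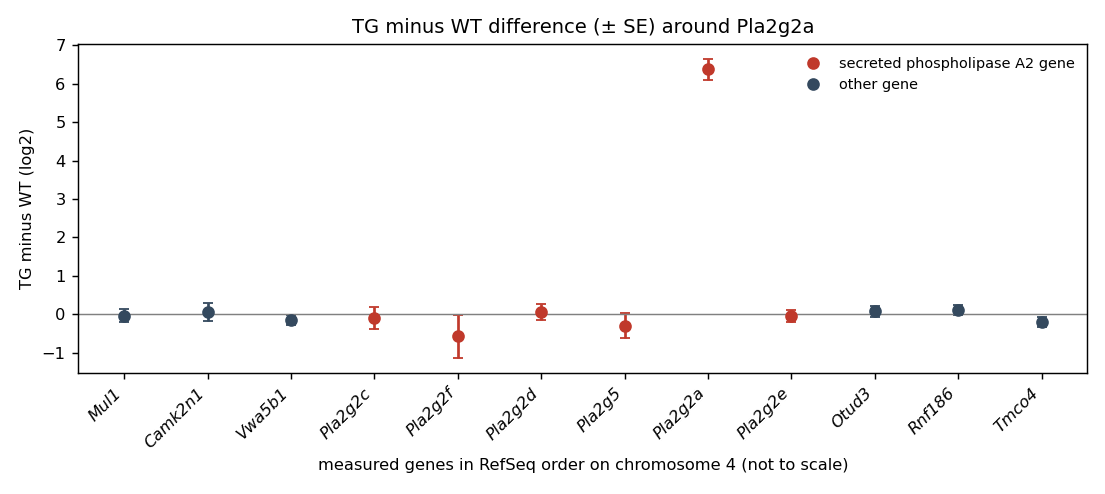
TG minus WT difference on the log2 scale with its SE (vertical axis) for the measured genes around Pla2g2a, in their order on chromosome 4 and not to scale. Secreted phospholipase A2 genes are red and other genes dark blue. Pla2g2a stands at 6.38 and its neighbours lie between -0.58 and 0.12.

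Pla2g2f, the gene of the group IIF enzyme of the suprabasal epidermis, had the largest difference after Pla2g2a and was not called. It read 10.44, 11.34 and 9.57 on TG arrays 1 to 3, against 11.52, 11.55 and 10.03 on WT arrays 1 to 3. WT arrays 1 and 2 and TG array 2 were high, both arrays numbered 3 were low, and TG array 1 lay between them. The means were 10.45 ± 0.89 in TG and 11.03 ± 0.87 in WT (SD, n = 3 each). The difference was -0.58 ± 0.56 (SE) with a 95% interval of -1.93 to 0.76, and 2.80% of all genes had a difference at least as large in size. TG was lower than WT between arrays of the same number in 3 of 3 pairs, by -1.08, -0.20 and -0.46, as it was for 16.5% of all genes. With the number as a block its p in limma was 0.0228 unadjusted, a level that 3.86% of all genes reached as lower in TG, and 0.551 adjusted.

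The spread of Pla2g2f within a genotype was wider than its difference between genotypes. Its residual SD was 0.88, against a median of 0.22 over all genes, and 2.91% of genes had an SD at least that large. On array 3, relative to the mean of arrays 1 and 2, it stood at -1.32 in TG and at -1.50 in WT. Pla2g5 went the same way, with -0.89 in TG and -0.71 in WT. These 2 of the 10 members were lower by at least 0.5 on array 3 in both genotypes, against the 9.15% of all genes given above. The mean of the 12 suprabasal markers was 10.48, 11.58 and 9.36 on TG arrays 1 to 3 and 11.58, 11.72 and 9.65 on WT arrays 1 to 3. Both Pla2g2f and Pla2g5 were thus highest on WT array 2 and lowest on TG array 3, as this marker mean was. TG array 1 lay between for the marker mean and for both genes. Each of the 12 markers read 5.31 or higher on every array. The mean of the 9 measured bulge and basal markers was 11.31, 10.50 and 11.42 on TG arrays and 10.53, 10.55 and 11.62 on WT arrays. In WT array 3 was high, and in TG arrays 1 and 3 were both high. Markers of other cell types differed on array 3 too. By at least 0.5 in both genotypes, 7 of 8 measured T cell markers, 6 of 11 Langerhans cell and macrophage markers and 4 of 8 sebocyte markers were lower there. The mean of the sebocyte markers stood at -1.17 in TG and -1.64 in WT on array 3 relative to the other arrays, and that of 6 endothelial markers at 0.66 in TG and 0.61 in WT. Fewer suprabasal cells in a sort and less RNA of these genes per cell cannot be told apart in bulk RNA, and the part of either in the spread of Pla2g2f was not tested. Without both arrays numbered 3 the difference of Pla2g2f was -0.64 (adjusted p = 0.783 in limma).

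**Figure D4:**
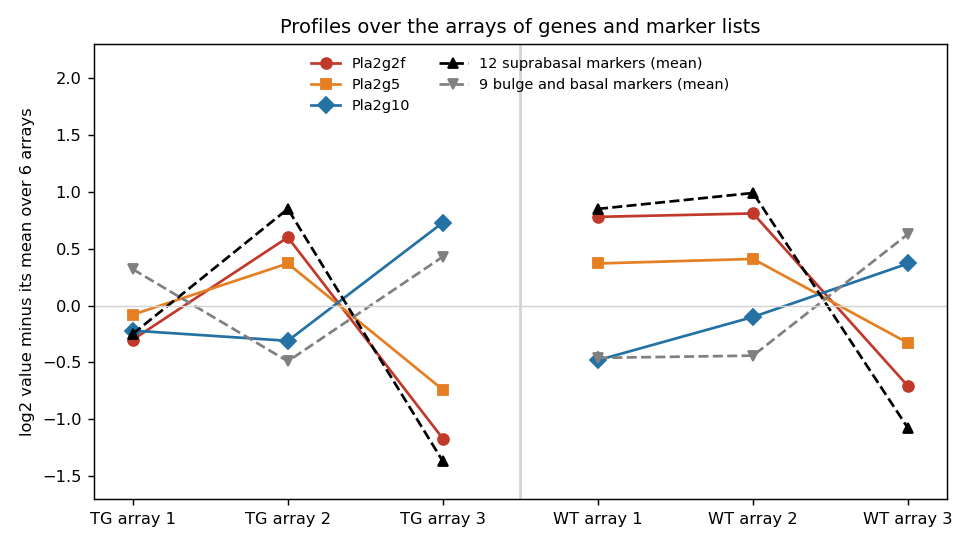
Log2 value minus its mean over the 6 arrays (vertical axis) for Pla2g2f, Pla2g5 and Pla2g10 and for the means of 12 suprabasal and 9 bulge and basal markers, on each array (horizontal axis, TG left of WT). Pla2g2f and the suprabasal mean are lowest on TG array 3, at -1.17 and -1.37, and low on WT array 3, at -0.71 and -1.08, where Pla2g10 is high.

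Genes with a profile like that of a member were sought for the 5 members whose values ranged over at least 1 on the log2 scale. Likeness was the root-mean-square distance between profiles centred on their means over the 6 arrays, among 17517 genes. No correlation is given. Nearest to Pla2g2f were Vsig10l at 0.05, Nbeal2 at 0.07 and Prxl2b at 0.09. Vsig10l read 7.80, 8.61 and 6.78 on TG arrays 1 to 3 and 8.89, 8.85 and 7.36 on WT arrays 1 to 3. Nearest to Pla2g5 were Rab44, the sphingosine kinase gene Sphk1 and Stap2, each at 0.04. Nearest to Pla2g2c were Ccna1, Pdzd11 and the lipogenic transcription factor gene Srebf1, each at 0.05. For Pla2g2a no gene came close. The smallest distances were those of Nr4a1 at 2.27, Csrnp1 at 2.32 and Gadd45g at 2.32. Profiles were not scaled, so for Pla2g2a this measure favours genes with large positive TG minus WT differences. Those of Nr4a1, Csrnp1 and Gadd45g were 2.02, 1.85 and 1.80, and none of these genes was called.

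Pla2g10 encodes the group X enzyme, which acts strongly on phosphatidylcholine. It read 5.74, 5.65 and 6.69 on TG arrays 1 to 3, against 5.48, 5.86 and 6.33 on WT arrays 1 to 3. It was high on array 3, by 1.0 over the mean of the other TG arrays and by 0.66 over that of the other WT arrays. A rise of at least 0.5 on array 3 in both genotypes was seen for 5.78% of all genes. Its TG minus WT difference was 0.14 ± 0.34 (SE) with a 95% interval of -0.67 to 0.95. Its nearest profiles were those of Itpk1 at 0.04, of Tfpi, which encodes an inhibitor of blood clotting, at 0.05, and of Cdk14 at 0.08.

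Pla2g2e, the gene of the IIE enzyme of mouse hair follicles, was the steadiest member. It read 6.89, 7.04 and 7.25 on TG arrays 1 to 3, against 7.13, 6.97 and 7.19 on WT arrays 1 to 3. No array stood out, and the range over all 6 was 0.37. The residual SD was 0.15, and 74.3% of genes had an SD at least that large. The difference was -0.04 ± 0.15 (SE) with a 95% interval of -0.39 to 0.31, the narrowest of the family.

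Pla2g2d, the gene of the IID enzyme known from dendritic cells and macrophages, read 7.70, 7.30 and 7.03 on TG arrays 1 to 3, against 7.5, 7.15 and 7.18 on WT arrays 1 to 3. Array 1 was the highest in both genotypes. The difference was 0.06 ± 0.21 (SE) with a 95% interval of -0.43 to 0.55. The mean of 11 Langerhans cell and macrophage markers was 7.16, 7.68 and 6.88 on TG arrays and 7.47, 7.43 and 7.09 on WT arrays. It was thus highest on TG array 2, unlike Pla2g2d. Of these 11 markers, 4 were above 0 and 7 below in the TG minus WT difference, and none passed the test.

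Pla2g2c belongs to the same group but is a pseudogene in humans. It read 5.87, 5.94 and 5.76 on TG arrays 1 to 3, against 6.32, 6.27 and 5.26 on WT arrays 1 to 3. The TG arrays lay close together, between a pair of higher WT arrays and WT array 3. The difference was -0.09 ± 0.29 (SE) with a 95% interval of -0.79 to 0.60. Without both arrays numbered 3 it was -0.39 (adjusted p = 0.783 in limma), and without WT array 1 it turned to 0.093. A further feature, annotated to both Ubxn10 and Pla2g2c and left out of the test, read 4.99, 4.80 and 4.99 in TG and 4.95, 4.77 and 4.63 in WT, and these groups overlapped too.

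Of the members outside the chromosome 4 group, none passed the test. Pla2g1b, the gene of the digestive enzyme of the pancreas, read 5.02, 4.72 and 4.36 on TG arrays 1 to 3, against 5.02, 4.85 and 4.66 on WT arrays 1 to 3. Both genotypes ran low on array 3, and the difference was -0.14 ± 0.20 (SE) with a 95% interval of -0.62 to 0.34. Pla2g3, the gene of an enzyme related to that of bee venom, read 6.70, 6.99 and 7.34 on TG arrays 1 to 3, against 7.32, 7.23 and 6.84 on WT arrays 1 to 3. Array 3 was the highest of the TG arrays and the lowest of the WT arrays, and the difference was -0.12 ± 0.21 (SE) with a 95% interval of -0.63 to 0.39. Pla2g12a, the gene of the atypical group XIIA enzyme, read 6.39, 6.42 and 5.92 on TG arrays 1 to 3, against 6.05, 6.28 and 5.88 on WT arrays 1 to 3. It was higher in TG in 3 of 3 pairs of the same number, as were 14.6% of all genes, and the difference was 0.17 ± 0.19 (SE) with a 95% interval of -0.28 to 0.62.

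The genes around these enzymes were read from 8 lists, of which 84 of 97 genes were measured. In limma 0 of the 84 passed the test in either direction, and 0 higher and 1 lower had an unadjusted p under 0.05. For 2 of the 84, or 2.38%, all TG arrays lay above all WT arrays, and for 1, or 1.19%, all lay below, no larger shares than among all genes. The median difference was -0.04, with 34 genes above 0 and 50 below. Of the other genes with a secreted phospholipase A2 domain, Pla2g12b differed by 0.05 ± 0.13, Oc90 by -0.06 ± 0.17 and Proca1 by 0.36 ± 0.38 (SE).

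Receptors and binding partners had 8 genes above 0 and 8 below, with a median of 0.01. Pla2r1, which encodes the M-type receptor of secreted phospholipases A2, read 5.71, 5.59 and 5.46 on TG arrays 1 to 3, against 5.68, 5.57 and 5.37 on WT arrays 1 to 3. The receptor gene differed by 0.05 ± 0.14 (SE) and its arrays overlapped. The list holds 7 proteoglycan genes. Dcn, Bgn and Hspg2, the genes of the list with the smallest p, differed by 0.92 ± 0.44, 1.22 ± 0.93 and 0.48 ± 0.40 (SE), and none passed the test. Between the arrays numbered 2, Bgn was lower in TG, at -0.67. The other 4 proteoglycan genes, Gpc1, Sdc1, Sdc4 and Vcan, differed by -0.03, 0.08, -0.10 and 0.04. The 6 measured fibroblast markers were all above 0, with a median of 0.30 and none past the test. So were 5 of 6 endothelial markers, with a median of 0.20, and 7 of 9 bulge and basal markers, with a median of 0.28. The part of any of these cell types in the values of the proteoglycan genes was not tested. Among the intracellular and PAF-type phospholipases A2, 6 of 13 were above 0 and the median was -0.01. Pla2g7, Plaat3 and Pafah1b1, with the smallest p there, differed by 0.96 ± 0.54, -0.46 ± 0.28 and 0.21 ± 0.21 (SE). None of them passed the test. Pla2g4a, the gene of the cytosolic enzyme that releases arachidonic acid, differed by -0.13 ± 0.26 (SE).

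Downstream, 11 of 12 genes of the prostaglandin enzyme and transport list were measured, and Ptgs1 was not among them. Of the measured genes 5 were above 0 and 6 below, with a median of -0.01. Slco2a1, the gene of a prostaglandin transporter, read 12.09, 12.13 and 11.94 on TG arrays 1 to 3, against 12.38, 12.51 and 12.29 on WT arrays 1 to 3. All TG arrays lay below all WT arrays, and the difference of -0.33 ± 0.13 (SE) did not pass (adjusted p = 0.99996 in limma). Ptges2 was the gene of this list with all TG arrays above WT, at 0.45 ± 0.21 (SE). Its lowest TG value, 7.87, was just above its highest WT value, 7.85. Hpgds had the largest difference of the list in size, -1.39 ± 0.84 (SE), and did not pass. Ptgs2, the gene of the inducible cyclooxygenase, differed by 0.06 ± 0.51 (SE). The pairs of the same number disagreed for Ptgs2, with TG minus WT at 0.89, 1.04 and -1.74 for arrays 1 to 3. All 7 prostanoid receptors were below 0, with a median of -0.10. Lipoxygenase and leukotriene genes had the lowest median of the 8 lists, -0.34, with 11 of 13 below 0. With single arrays left out that median ran between -0.64 without WT array 3 and -0.09 without TG array 3, where the prostanoid receptors were lower, at -0.16. Of these 13 genes 7 were lower by at least 0.5 on array 3 in both genotypes, as Pla2g2f was. Aloxe3, Alox12b and Alox5 differed by -0.87 ± 0.48, -0.81 ± 0.66 and -0.78 ± 0.56 (SE). The suprabasal markers, with 11 of 12 below 0 and a median of -0.41, went with them, and their part was not tested. With single arrays left out the suprabasal median ran between -1.23 without WT array 3 and 0.13 without TG array 3, and it was -0.07 and -0.05 without WT array 1 and WT array 2. Lysophospholipid enzymes and receptors had a median of 0.03, with Lpar2, a receptor gene for lysophosphatidic acid, at 0.28 ± 0.14 (SE) and all TG arrays above WT. Reacylation genes, whose enzymes put fatty acids back into phospholipids, had a median of -0.02. Their differences ran between -1.12 ± 0.84 (SE) for Mboat2 and 0.31, and none passed the test.

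**Figure D5:**
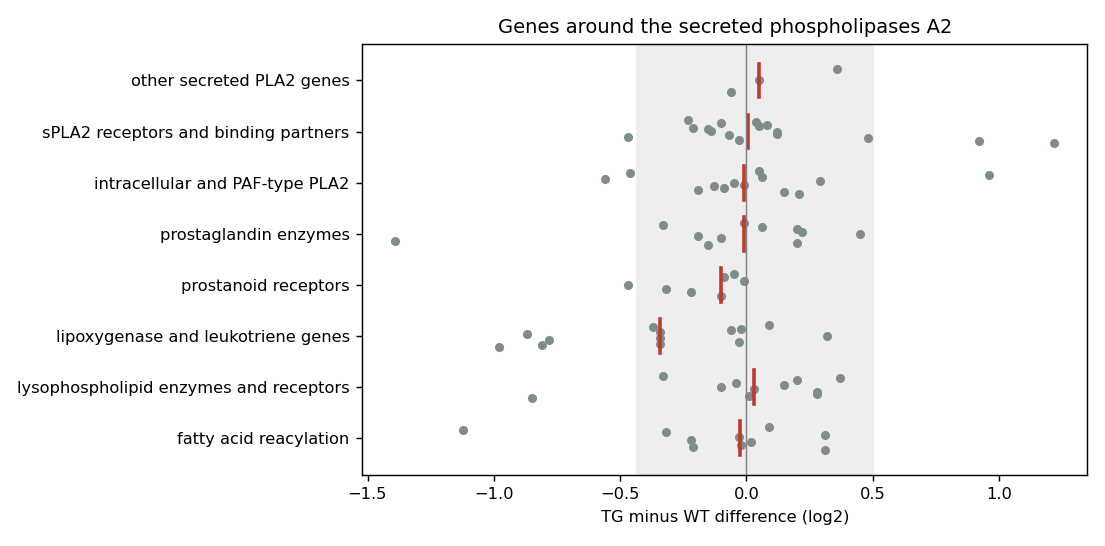
TG minus WT difference on the log2 scale (horizontal axis) of each measured gene (grey points) in the 8 lists (vertical axis), with the list's median as a red bar. The shaded band is the central 95% of all genes, between -0.43 and 0.50. Medians lie between -0.34 for the lipoxygenase and leukotriene genes and 0.05 for the other secreted phospholipase A2 genes.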

How the data were processed

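RNA of sorted hair follicle stem cells was measured on 6 Affymetrix arrays, 3 TG and 3 WT, with genotype and replicate number from the labels. The values are the authors' deposited log2 expression values, 1 per array and feature. The scale was read from the values, and no source used here gives the log base, the summarisation or the scaling between arrays. The submitters' processing notes name Transcriptome Analysis Console and version 1.4.1 of Affymetrix Expression Console, without their roles. Without detection values no gene can be called absent, and levels of different genes were not compared, since probes differ in brightness. The number of arrays limits the precision.

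Of 41345 features, 23521 have 1 gene symbol in the platform annotation. The brightest feature by the mean of the 6 arrays stood for a gene, which left 22180 genes. TG was compared with WT with lmFit and eBayes of limma 3.58.1 (R 4.3.3), two-sided, over all of them, with Benjamini-Hochberg adjustment and a threshold of 0.05. The fit was also run on simulated data with independent noise for each gene and array. Real arrays shared deviations, as given below, so that run does not measure the error rate here. Gene lists were summarised by counts and medians. The members, lists and tests were chosen with earlier results of these data known. All members could be named. So could up to 3 genes with the smallest p per list, a fixed set (Pla2r1, Pla2g4a, Ptgs1, Ptgs2, Krt14, Cd34, Itga6 and Krt15), the 3 measured genes nearest to Pla2g2a on each side, and the 3 nearest profiles of each member that ranged over at least 1, leaving out predicted genes, microRNAs and olfactory and vomeronasal receptors. Gpc1, Sdc1, Sdc4 and Vcan were named outside this rule, after their values were seen.

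Deviations from the genotype means correlated over genes at 0.20, 0.67 and 0.74 between arrays of the same number, each above the limit of 0.1. The fit with a replicate block treated arrays of the same number as pairs, and it did not depend on this check. No label says that arrays of the same number belong together. The check does not single out the numbers either. TG array 1 and WT array 2 reached 0.17, and TG array 2 and WT array 1 reached 0.50. Alternatives were quantile normalization, all features, the mean of a gene's features, genes above the median level, no moderation, array weights, the replicate block, each array left out, and both arrays numbered 3 left out. Promoter sequences and gene order came from RefSeq tables of GRCm38.p6.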

Additional observations from a re-analysis of the deposited data

How the results depend on the processing

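Pla2g2a kept its direction under all 14 alternatives run, at 6.19 to 6.70 with single arrays left out and 6.33 to 6.45 otherwise. Its adjusted p in limma ran between 0.000481 and 0.292. The call was lost with no moderation (difference 6.38, adjusted p = 0.292 in limma) and with both arrays numbered 3 left out (6.33, adjusted p = 0.173), and the counts of called members and of called genes were both 0 there. With single arrays left out those counts were between 0 and 1, with 0 without TG array 1. Fewer samples were fitted in the alternatives that leave arrays out. With no moderation each gene was judged by its own variance alone. The unadjusted p of Pla2g2a in limma was 3.95e-05 there and 1.15e-07 in the main fit. With the replicate block Pla2g2a was again called (adjusted p = 0.00428 in limma), and the block changed no other call. Of 121 values of the other 9 members under alternatives, 0 passed the threshold and 11 had the sign turned. With array weights Pla2g1b turned to 0.032 and Pla2g3 stood at -0.45 (adjusted p = 0.301 in limma). Without both arrays numbered 3 Pla2g3 stood at -0.43 (adjusted p = 0.783 in limma). With single arrays left out Pla2g10 ran between -0.19 and 0.36, Pla2g1b between -0.30 and 0.030, Pla2g2c between -0.44 and 0.093, Pla2g2d between -0.12 and 0.22, Pla2g2e between -0.14 and 0.048 and Pla2g3 between -0.29 and 0.036. Pla2g2f and Pla2g5 were below 0 and Pla2g12a above 0 in all alternatives that gave a value. With single arrays left out Pla2g5 ran between -0.56 without TG array 2 and -0.004 without TG array 3, and Pla2g12a between 0.077 without WT array 3 and 0.33 without TG array 3. Pla2g2f was at -0.87 with array weights, at -1.08 without WT array 3, at -1.03 without TG array 2 and at -0.14 without TG array 3. The filter on dim genes left 5 members, so the other 5 have no value there. The list medians of the lipoxygenase and suprabasal genes shifted with single arrays left out, as given beside them. Those shifts stayed within 1 SD of the list mean within genotypes. Of 153 list medians under alternatives, 3 moved by more than that. The lysophospholipid median was 0.17 without WT array 3. Without both arrays numbered 3, the median of mast cell and platelet markers was -0.14 and that of melanocyte markers -0.56. None of the 84 genes of the 8 lists passed under any alternative run on them.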
